A study of Mus musculus with 6 samples.

Results

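S-scored GL261-GSCs cells are the cells of the glioblastoma stem cell cultures in which DNA replication genes made up the largest share of the RNA. They were selected on a score, the summed unique molecular identifiers (UMIs, 1 per captured RNA molecule) of Mcm2, Mcm3, Mcm4, Mcm5, Mcm6, Gins2, Cdc6, Ung, Uhrf1 and Dtl divided by all UMIs of the cell. Barcodes with at least 8000 UMIs, at least 500 genes and under 10% mitochondrial UMIs counted as cells, and the 10% with the highest score in each library were the members. They numbered 1489 of 14893 GL261-GSCs cells, with 360, 464, 487 and 178 in replicates 1 to 4, and 22868 cells passed the filter in the whole series. The 50% of cells with the lowest score in the same library, 7447 in all, served as the comparison and are called low-scored.

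The study profiled mouse glioma cells by droplet-based 5' single-cell RNA-seq in 6 libraries. GL261 is an established mouse glioma line, grown here in a differentiation medium that contains serum and represented by 2 libraries. GL261-GSCs are the cultures labelled as glioblastoma stem cells, kept in defined medium for such cells, with 4 libraries. The labels name these media and no further treatment or genetic change for either culture. They speak of cells or nuclei without saying which were loaded, and they do not say whether replicates came from separate cultures, so all p-values measure the spread between these libraries, which may be technical.

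A cell copies its genome in S phase. Before that, in G1, the origin recognition complex and the loading factors Cdc6 and Cdt1 place the ring of MCM proteins on DNA, and the GINS complex and Cdc45 later turn this ring into an active helicase. Cyclin E with its kinase drives the entry, and E2F transcription factors, held back by RB proteins until then, switch on most of the genes concerned. Uhrf1 recognises newly copied DNA and brings the DNA methyltransferase Dnmt1 to it, and Ung removes uracil from DNA. After S phase come G2 and mitosis, whose own genes, such as cyclin B and the Aurora and Polo-like kinases, serve here to tell the later stages apart. GL261 is widely used as a transplantable model of mouse glioblastoma.

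The promoters of 3 of the 4 genes that mark these cells are shown because E2F factors bind short sites near the starts of replication genes. Promoter windows run from 250 bases before a RefSeq start to 50 bases after it, on GRCm38.p6, all on the + strand. In the GENCODE M21 annotation used below for coordinates, Mcm5 starts at 75109569, Cdc6 at 98907801 and Uhrf1 at 56303321. The Cdc6 window and the Uhrf1 window shown therefore lie inside the GENCODE gene. Capitals mark matches to TTTCGCGC, TTTGGCGC, TTTCCCGC or TTTGCCGC on either strand. Mcm5 lies at chr8:75109259-75109558, Cdc6 at chr11:98907901-98908200, and the Uhrf1 window shown at chr17:56304063-56304362.
Mcm5: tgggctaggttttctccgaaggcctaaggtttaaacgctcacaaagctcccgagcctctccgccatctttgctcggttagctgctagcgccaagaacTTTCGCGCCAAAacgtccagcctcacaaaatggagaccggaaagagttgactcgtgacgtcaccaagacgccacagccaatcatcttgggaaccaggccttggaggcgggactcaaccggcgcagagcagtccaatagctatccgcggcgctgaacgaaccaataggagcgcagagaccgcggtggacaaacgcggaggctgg
Cdc6: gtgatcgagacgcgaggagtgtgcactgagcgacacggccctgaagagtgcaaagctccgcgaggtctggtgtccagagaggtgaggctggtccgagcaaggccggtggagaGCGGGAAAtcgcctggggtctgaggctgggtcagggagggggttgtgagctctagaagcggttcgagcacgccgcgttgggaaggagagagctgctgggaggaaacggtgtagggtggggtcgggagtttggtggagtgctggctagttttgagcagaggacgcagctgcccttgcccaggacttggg
Uhrf1: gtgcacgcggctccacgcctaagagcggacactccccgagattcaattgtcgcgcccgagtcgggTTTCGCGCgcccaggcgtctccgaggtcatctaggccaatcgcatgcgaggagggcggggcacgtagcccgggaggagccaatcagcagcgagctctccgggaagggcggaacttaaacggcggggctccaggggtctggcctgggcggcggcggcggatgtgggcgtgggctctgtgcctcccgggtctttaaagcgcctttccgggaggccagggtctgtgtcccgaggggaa
In Mcm5, TTTCGCGC at position -153 relative to the start overlaps GCGCCAAA, the reverse complement of TTTGGCGC, at -149. The Cdc6 match, GCGGGAAA, is the reverse complement of TTTCCCGC and begins at -138. The Uhrf1 match begins at -185. The other Uhrf1 window, chr17:56303087-56303386, which spans the GENCODE start, held none of the 4 letter strings. The fourth marker gene is Gins2.

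At least 1 match stood in the promoters of 6 of the 8 score genes with an entry (75.0%), against 744 of all 32851 windows of this length (2.26%) and 704 of 27025 genes (2.6%). Among the genes of the comparison with low-scored cells described below, matches stood in 119 of 856 genes that were higher in S-scored cells (13.9%), in 20 of 797 that were lower (2.51%) and in 462 of all 9337 tested genes with an entry (4.95%). By list outside the score, the count was 8 of 16 for E2F factors and S cyclins, 7 of 19 for origin genes, 6 of 20 for polymerases and fork proteins and 0 of 17 for nucleotide synthesis. These are matches of letters, with no test and no measure of binding.

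Each library was deposited with 80899005 to 121309232 UMIs before any filter on barcodes. The S-scored cells of a library summed to 2110119 to 6711822 UMIs and the low-scored cells to 9812436 to 32499348. Replicate 4 of GL261-GSCs stood apart, with the fewest cells, the lowest depth and low-scored cells of which 219 of 892 held no UMI of any score gene, against 25, 34 and 166 in replicates 1 to 3. Between pairs of GL261-GSCs libraries, 10 to 36 cell barcodes were shared, where 8.72 to 30.6 would be shared by chance. Of these, 0 to 2 were S-scored in both libraries. Markers of lymphocytes, endothelium and red cells summed to at most 0.948 CPM (UMIs scaled to a common total per library) in S-scored cells and 0.923 in low-scored cells.

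Within the S-scored cells the score was spread over most of its genes. A median of 9, 9, 9 and 8 of the 10 score genes had a UMI in S-scored cells of replicates 1 to 4, against 5, 5, 4 and 1 in low-scored cells. The median score was 23.8, 26.2, 23.7 and 22.4 UMIs per 10000 in S-scored cells and 5.18, 6.87, 4.67 and 1.71 in low-scored cells. The leading gene, most often Mcm6, gave a median of 25.2%, 25%, 25.5% and 26.1% of a member's score. The threshold cut a continuous range: the lowest members had scores of 20.57, 22.73, 20.5 and 18.63 per 10000 UMIs, and the highest cells outside had 20.57, 22.71, 20.5 and 18.59. These values chose the cells and are a description.

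Depth did not separate the classes in 1 direction. Median UMIs per cell were 15930, 12253, 13307 and 11021 in S-scored cells and 16570, 13268, 12591 and 10275 in low-scored cells of replicates 1 to 4. The ratio of these medians averaged 1.0 and ran from 0.924 to 1.07 over the 4 libraries, with S-scored cells deeper in 2 of them (exact permutation p = 1.0, 2-sided, smallest possible 0.13). Median genes per cell averaged 4301 ± 358 in S-scored and 4162 ± 490 in low-scored cells (SD, n = 4, exact permutation p = 0.375, 2-sided).

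Whether the score genes move together was checked by leaving each score gene out, choosing the cells again on the other 9, and measuring the gene that had no part in the choice. All 10 genes were higher in the S-scored cells so chosen, in all 4 libraries and with no overlap between the classes. How many of all genes tested lacked such overlap was not counted, here or in the comparisons below. Some genes below were picked for a large change in the same direction in 4 libraries, so their lack of overlap is a description. Log2 fold changes ran from 1.57 for Gins2 to 3.27 for Cdc6. The marker genes of the label, Mcm5, Gins2, Cdc6 and Uhrf1, were thus all higher when they had no part in the choice. The measure is RNA of replication genes, and DNA content was not analysed here. Since the left-out gene and the other 9 are all replication genes, the check cannot tell S phase from the G1 stage just before it.

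Mcm5, a subunit of the MCM helicase, stood at 211.5, 252.7, 218.8 and 214.8 CPM in S-scored cells of replicates 1 to 4 and at 67.93, 98.61, 65.01 and 30.76 CPM in low-scored cells. Its log2 fold change was 1.83 (SE 0.18, adjusted p = 0.000129 by edgeR's quasi-likelihood test with Benjamini-Hochberg adjustment), in a fit that called 15.6% of all genes. Gins2, a subunit of GINS, had 66.34, 88.43, 95.71 and 105.2 CPM against 25.61, 36.38, 35.69 and 18.65, a log2 fold change of 1.57 with SE 0.16 (adjusted p = 0.000148, 17.4% of genes called). The lowest S-scored library of either gene lay above the highest low-scored library. Cdc6, the loading factor for the MCM ring, had 88.75, 69.78, 83.4 and 83.89 CPM against 9.118, 11.43, 8.282 and 2.997, a log2 fold change of 3.27 with SE 0.21 (adjusted p = 2.39e-05, 16.5% called). Uhrf1 had 232.9, 278.5, 335.8 and 320.6 CPM against 76.54, 107.1, 95.39 and 41.79, a log2 fold change of 1.89 with SE 0.19 (adjusted p = 0.000126, 16.1% called). Replicate 4 had the lowest low-scored level of all 4 genes.

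The other 6 score genes gave the same order when left out. Mcm2, Mcm3, Mcm4 and Mcm6, further subunits of the helicase ring, had log2 fold changes of 1.84, 1.99, 1.98 and 1.9 in fits that called 16.5%, 17.1%, 16.5% and 17.1% of genes. Ung had 3.04 (16.7% called), and Dtl, which directs Cdt1 to destruction once replication has begun, had 1.77 (16.5% called). Adjusted p lay between 4.5e-06 and 0.000206 for these 6 genes by the edgeR test. For comparison, the levels of Cdc6 in the cells chosen with all 10 genes were 98.1, 81.5, 100 and 97.8 CPM against 7.89, 9.36, 6.94 and 2.36, and are a description, since Cdc6 then took part in the choice.

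**Figure D1:**
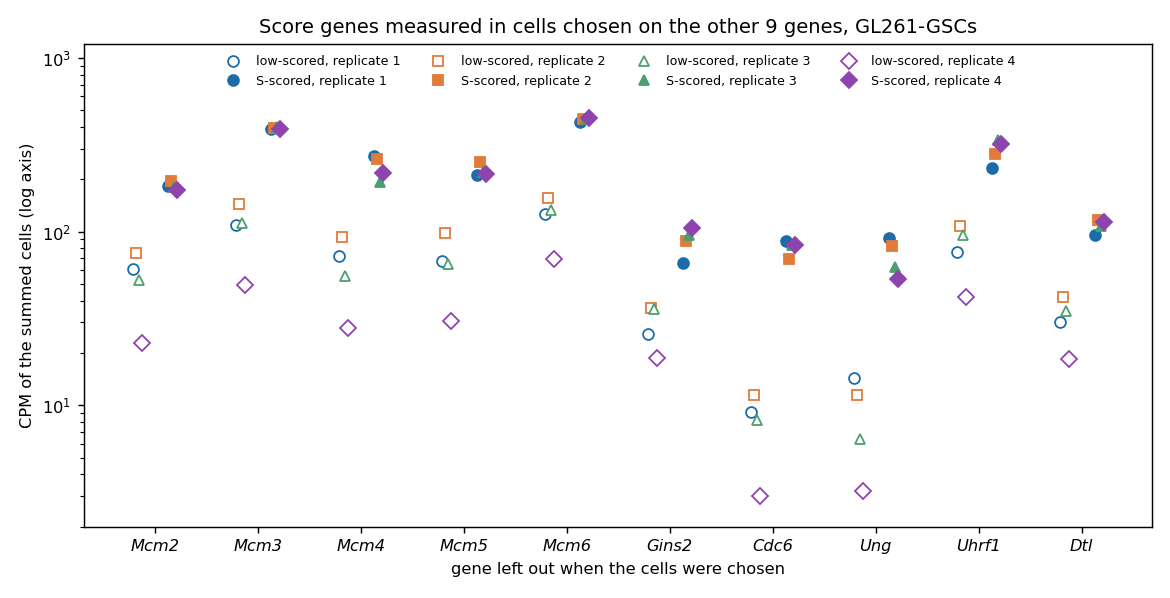
Level of each score gene (CPM of the summed cells, log axis) in cells chosen on the other 9 genes, with 1 point per library, filled for S-scored and open for low-scored cells. In every gene the 4 filled points lie above the 4 open points, and the open diamond of replicate 4 is the lowest.

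Outside the genes that chose them, the S-scored cells carried more RNA of most listed replication genes and less RNA of many mitotic genes. Of 12587 genes tested, 1097 were higher (8.72%) and 1004 lower (7.98%) than in low-scored cells at an adjusted p under 0.05, by edgeR's quasi-likelihood test on the summed UMIs with the library as a block. The higher count includes the 10 score genes, whose direction the choice of cells fixed. Called or not, 2381 of the 12587 genes were higher and 2546 lower in all 4 libraries. Among genes outside the score with an average log2 CPM of at least 5, Slfn9, Tcf19, Brca1, Wdhd1 and Rrm2 rose most and Ube2c, Ccnb1, Cenpa, Arl6ip1 and Aurka fell most. Scaling by library size in place of TMM gave 1581 higher and 691 lower, and the median change over the genes tested went from -0.01 to 0.05 on the log2 scale. With no filter on low counts, 1080 of 27392 genes were higher and 1633 lower. Of the 2101 genes called, 170 were called without the block, and all 2101 had the same sign in that fit, while leaving out replicates 1, 2 or 3 gave 1213, 1220 and 557 calls.

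Origin licensing and helicase genes outside the score were the first group. Of 24 measured genes, 19 were higher and 1 lower, with a median log2 fold change of 1.11, against 8.72% and 7.98% and a median of -0.01 over all genes tested. Those values over all genes are also the background for each further list compared with low-scored cells below. Wdhd1, which couples the helicase to the polymerase that primes DNA, stood at 47.3, 55.0, 69.9 and 74.6 CPM in S-scored cells and 14, 15.7, 17.3 and 8.78 in low-scored cells, with a log2 fold change of 2.06 with SE 0.16 (adjusted p = 2.93e-05). Its classes did not overlap. Cdt1, which loads the MCM ring together with Cdc6, had 112, 115, 113 and 132 CPM against 39.7, 52.3, 40.6 and 19.3, a log2 fold change of 1.63 with SE 0.19 (adjusted p = 0.000341). Geminin (Gmnn), the inhibitor of Cdt1, was higher too, with a log2 fold change of 1.10 (adjusted p = 0.00106), as were the helicase cofactors Cdc45 (1.55) and Mcm10 (1.98), the remaining ring subunit Mcm7 (1.46) and the origin subunit Orc1 (1.83). Dbf4, the activating partner of the kinase Cdc7, had 92.2, 108, 69.5 and 72.2 CPM against 157, 181, 108 and 66.0, lower in replicates 1 to 3 and higher in replicate 4. It was called lower with a log2 fold change of -0.56 (adjusted p = 0.0132, edgeR), and no origin gene was called lower without replicate 3 or when low-scored cells in the top 20% of the G2/M score were left out. Cdc7 was higher with 1.15 (adjusted p = 0.000128). Orc3, Orc4, Orc5 and Gins3 did not pass the test, with log2 fold changes of 0.06 to 0.28.

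Genes of the polymerases, the sliding clamp and the fork were higher in 22 of 25 cases and lower in none, at a median log2 fold change of 1.10. Pcna, the clamp that holds polymerases on DNA, had 131, 124, 111 and 105 CPM in S-scored and 57.6, 64.2, 40.6 and 27.6 CPM in low-scored cells, a log2 fold change of 1.33 with SE 0.13 (adjusted p = 8.01e-05, edgeR). Every S-scored library was above every low-scored library. Lig1, the ligase that joins the fragments of the lagging strand, had 141, 116, 142 and 177 CPM against 42.9, 50.9, 52.5 and 31.7, a log2 fold change of 1.66 (SE 0.16). Dna2, a nuclease that trims those fragments, had 35.3, 28.7, 28.0 and 22.8 CPM against 8.09, 9.02, 6.17 and 2.68, a log2 fold change of 2.1 with SE 0.16 (adjusted p = 2.47e-05). Dscc1, part of a loader of the clamp, had the largest change of the list at 2.3. Rpa3, Rnaseh2b and Pold2 did not pass the test, at 0.13, 0.18 and 0.26.

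Enzymes that supply nucleotides were higher in 15 of 18 cases and lower in none, with a smaller median of 0.76. Rrm2, the regulated subunit of ribonucleotide reductase, led them with 180.0, 211, 179 and 186 CPM against 42.2, 66.8, 54.3 and 24.0, a log2 fold change of 2.05 with SE 0.17 (adjusted p = 3.56e-05, edgeR). Tyms, which makes thymidylate, had 212, 189, 168 and 139 CPM against 132, 126, 86.0 and 35.2, a log2 fold change of 0.99 with SE 0.17 (adjusted p = 0.00408). Its S-scored range started just above its low-scored range. Thymidine kinase Tk1 (1.33) and the serine hydroxymethyltransferase Shmt1 (1.01) followed, whereas the partner subunit Rrm1 was at 0.78. Nme1, Impdh2 and Dctpp1 did not pass the test.

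Of 11 genes that rebuild chromatin behind the fork or copy its DNA methylation, 10 were higher, with a median of 0.87. Chaf1b, a subunit of the assembly factor that places new histones, had 34.5, 37.2, 35.2 and 33.2 CPM against 9.27, 9.63, 7.07 and 3.54, a log2 fold change of 2.19 with SE 0.16 (adjusted p = 2.03e-05, edgeR). Slbp, which binds the stem-loop of histone messages, had 204, 194, 209 and 222 CPM against 83.7, 104, 82.0 and 53, a log2 fold change of 1.37 (SE 0.14). The remodeller Hells reached 1.54, Dnmt1 0.87, and the histone chaperone Asf1a did not pass the test at 0.16.

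Replication-dependent histone genes did not move as a group. Of 16 listed, 11 had enough UMIs to be tested, and 3 were higher, 1 was lower and 7 did not pass, with a median of 0.09. The 3 were linker histones: Hist1h1a had 276, 233, 180.0 and 170.0 CPM against 140.0, 111, 89.9 and 45.3, a log2 fold change of 1.2 with SE 0.13 (adjusted p = 0.00022, edgeR), with Hist1h1d at 0.6 and Hist1h1e at 0.32. Hist1h4h was the lower member at -0.57. The messages of these genes lack poly(A) tails, and genes of each core histone are near-identical copies, so counts of this list are uncertain. When low-scored cells in the top 20% of the G2/M score were left out, 7 of the 11 were higher and none lower.

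Among E2F factors, RB proteins and S cyclins, 15 of 19 were higher and 1 lower, with a median of 0.95. E2f1 had 58.0, 57.9, 81.2 and 89.8 CPM against 15.9, 22.9, 25.1 and 27.9, a log2 fold change of 1.64 with SE 0.09 (adjusted p = 6.52e-06, edgeR). The cyclins of S phase entry were higher too. Ccne2 had 46.6, 39.8, 38.8 and 54.6 CPM against 8.48, 9.27, 8.24 and 4.82, a log2 fold change of 2.44 with SE 0.16 (adjusted p = 1.63e-05). Ccne1 had 68.4, 53.6, 44.1 and 37.5 CPM against 33.1, 27.2, 16.0 and 14.5, a log2 fold change of 1.19 (SE 0.1). E2f2, E2f7 and E2f8, of which the latter pair act as repressors, were at 2.0, 1.5 and 1.64. Cyclin A2 (Ccna2), needed later in S phase and in G2, was the lower member. It had 59.0, 89.5, 81.8 and 100 CPM against 125, 205, 166 and 101, a log2 fold change of -0.87 with SE 0.16 (adjusted p = 0.00453), and the gap was absent in replicate 4. The call was lost without replicate 3 and when low-scored cells in the top 20% of the G2/M score were left out. Rb1, Rbl2 and Fbxo5 did not pass the test.

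Replication checkpoint and repair genes were higher in 22 of 25 cases and lower in none, with a median of 1.01. Brca1, which protects and repairs stalled forks, had 75.8, 67.2, 86.2 and 74.6 CPM against 18.9, 20.7, 19.7 and 9.53, a log2 fold change of 2.1 with SE 0.15 (adjusted p = 1.81e-05, edgeR). Claspin (Clspn), which relays the signal of stalled forks to Chek1, had 104, 103, 93.5 and 110.0 CPM against 35.3, 41.8, 30.9 and 17.2, a log2 fold change of 1.7 (SE 0.16). Msh6, a mismatch repair protein, had 137, 141, 151 and 176 CPM against 40.7, 58.2, 57.1 and 43.7, a log2 fold change of 1.59 (SE 0.11). In each of these genes the classes did not overlap. Exo1 (1.59), Chek1 (1.44) and the partner of Brca1, Bard1 (1.5), were higher as well, and Atr, Atrip and Wee1 did not pass the test.

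Several of the differences lay outside the lists. Slfn9, at chr11:82978390-82991830 (-, GRCm38), had 64.8, 57.2, 77.0 and 74.6 CPM against 12.4, 12.5, 14.5 and 6.75, a log2 fold change of 2.5 with SE 0.15 (adjusted p = 7.73e-06, edgeR) and the largest rise under the rule for named genes. Tcf19, a chromatin-binding protein, had 61.0, 73.4, 86.2 and 85.0 CPM against 14, 25, 20.1 and 7.82, a log2 fold change of 2.15 (SE 0.2). Atad2, an ATPase with a bromodomain, and Fam111a, a protease that acts at replication forks, were both at 1.86. Zfp367, a zinc finger protein, was at 2.09. None of these genes overlapped between the classes, a description for Slfn9, Tcf19, Atad2 and Fam111a, which were named for large rises in 4 libraries.

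**Figure D2:**
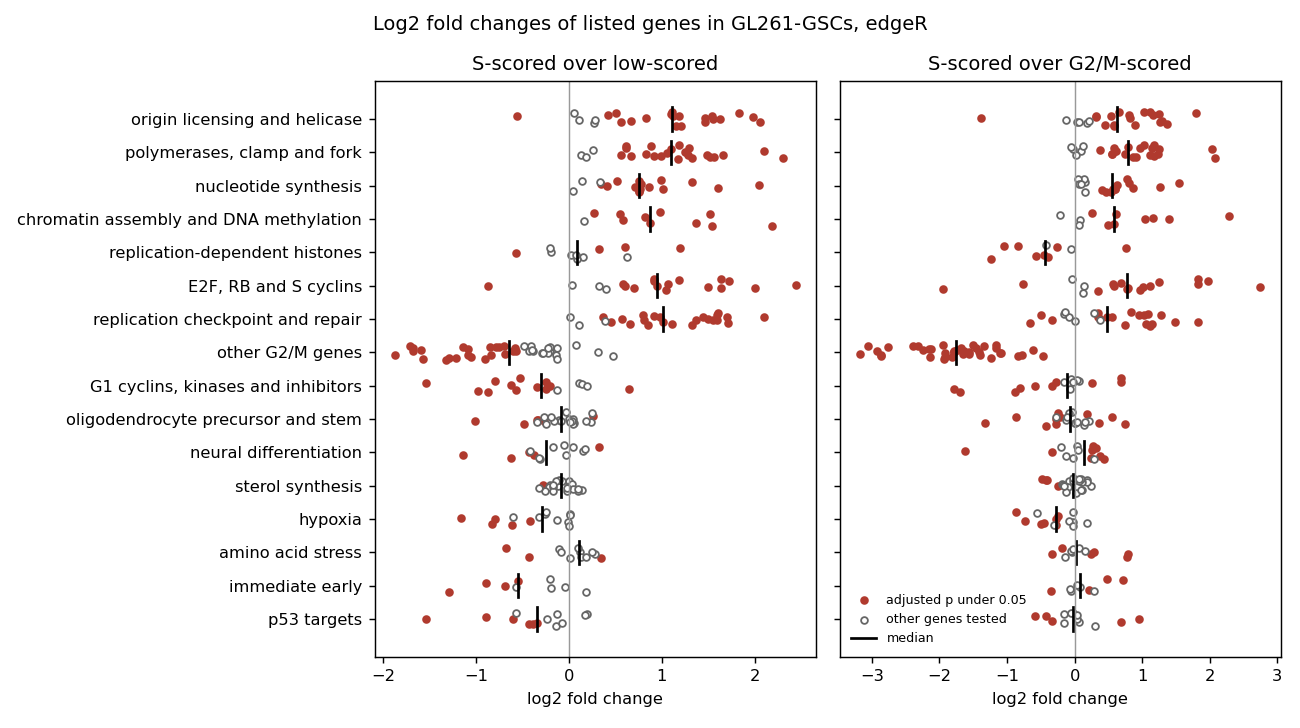
Log2 fold change of each listed gene in GL261-GSCs, S-scored over low-scored cells on the left and over G2/M-scored cells on the right, with filled points for an adjusted p under 0.05 and a bar at each list's median. The medians of the replication lists other than histones lie to the right of 0 in both panels, at 0.76 to 1.11 on the left, with single genes such as Dbf4 and Ccna2 to the left of 0, and the G2/M genes outside the G2/M score lie to the left, with medians of -0.64 and -1.76.

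Many genes of G2 and mitosis were lower in S-scored than in low-scored cells, with replicate 4 apart from the other libraries. All 10 genes of a G2/M score (Ccnb1, Ccnb2, Cdc20, Plk1, Aurka, Cenpf, Cenpe, Tpx2, Hmmr and Ube2c), none of which took part in choosing the cells, were lower, with a median log2 fold change of -1.55, and 23 of 40 other G2/M genes were lower, 17 did not pass, and the median was -0.64. By library, the median log2 ratio of these 40 genes was -0.85, -1.03 and -0.75 in replicates 1 to 3 and 0.22 in replicate 4. Ube2c, the ubiquitin-conjugating enzyme of the anaphase-promoting complex, had 167, 144, 160.0 and 171 CPM against 821, 941, 980.0 and 605, a log2 fold change of -2.38 with SE 0.13 (adjusted p = 4.58e-06, edgeR). Cyclin B1 (Ccnb1) had 23.1, 24.1, 20.6 and 20.9 CPM against 91.8, 99.8, 82.4 and 46.9, a log2 fold change of -1.9 (SE 0.12). The mitotic kinases Aurka (-1.83) and Plk1 (-1.78), the centromere histone Cenpa (-1.9) and the phosphatase Cdc25b (-1.71) followed. The S-scored levels of these genes were all under the low-scored levels.

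These counts moved with the makeup of the low-scored cells. When the low-scored cells in the top 20% of the G2/M score were left out, 3 of the 10 score genes and 4 of the 40 other genes were lower, 4 of the 40 were higher, and the medians were -0.59 and 0.04. Over all 12469 genes tested in that setting, 1076 were higher and 981 lower. The cells left out were picked on the same 10 score genes and among low-scored cells only. A smaller fall of those 10 genes was therefore built into the removal. Without replicate 4, 36 of the 40 were lower, against 1219 of all 14096 genes tested. Mki67, Top2a and Cdk1, which are widely used to mark cycling cells, did not pass the test at -0.43, -0.2 and -0.48. Mki67 had 149, 130, 245 and 260.0 CPM in S-scored cells and 272, 272, 318 and 163 in low-scored cells, so that replicates 1 to 3 were lower and replicate 4 was higher. With those cells left out, 19 of 24 origin genes, 23 of 25 polymerase and fork genes, 16 of 19 E2F and cyclin genes and 23 of 25 checkpoint genes were higher, and none of these lists held a lower gene.

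Scored cell by cell, the S-scored cells were nearly absent from the top of the G2/M score. Every cell was thinned to 8000 UMIs, and both classes were chosen again on the thinned counts. Of these S-scored cells, 0.278%, 0.431%, 0.411% and 0.562% in replicates 1 to 4 were in the top 10% of their library's G2/M score. Among low-scored cells the shares were 16.8%, 17.2%, 14.1% and 11%. The difference averaged -14.4 ± 2.96 percentage points (SD, n = 4) and was negative in 4 of 4 libraries, with an exact permutation p of 0.13 (2-sided), the smallest that 4 libraries allow. On all UMIs it was -15.1 ± 3.52, and 5 cells of 1489 were in the top 10% of both scores. On thinned counts, most S-scored cells lay in the lower part of the G2/M score, with 78.1%, 89.2%, 75.8% and 55.6% in its bottom 50%. The median G2/M percentile was 33.5, 28.9, 35 and 47.2 in S-scored cells of replicates 1 to 4 and 65.1, 66.6, 57.0 and 34.3 in low-scored cells. The S-scored cells were thus lower in replicates 1 to 3 and higher in replicate 4. The lowest G2/M decile held 9.21%, 10.0%, 12.7% and 16.8% of the low-scored cells of replicates 1 to 4, with the highest share in replicate 4.

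**Figure D3:**
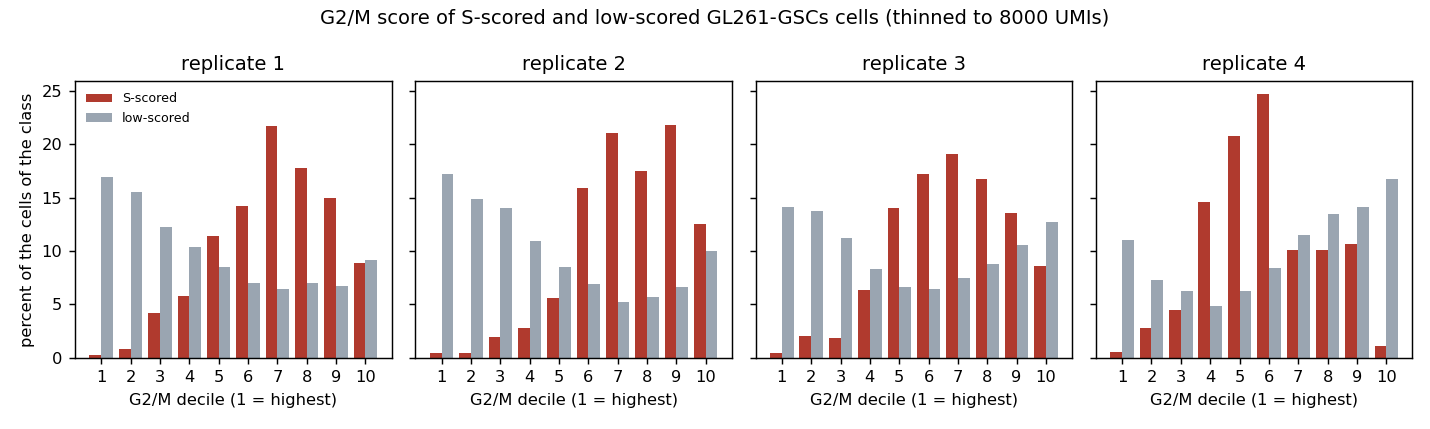
Share of the S-scored and low-scored cells of each GL261-GSCs library (percent of the class, bars from 0) in each decile of the G2/M score, 1 being the highest, with cells thinned to 8000 UMIs. The classes were chosen again on the thinned counts. S-scored cells peak in the middle and lower deciles and make up under 1% in decile 1, and low-scored cells of replicate 4 gather in decile 10 (16.8%).

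Set against the G2/M-scored cells, the top 10% of the G2/M score in each library, the S-scored cells differed at replication and mitotic genes alike. Of 11998 genes tested, 1604 were higher (13.4%) and 1651 lower (13.8%) by edgeR, with the cells in both classes left out. Scaling by library size moved the share of higher genes among those called from 49.3% to 66.8%, and DESeq2 called 1544 genes in place of 3255. All 40 G2/M genes outside the score were lower, with a median of -1.76, among them Top2a (-1.56), Mki67 (-1.68) and Cdk1 (-1.79). The 10 genes of either score chose these cells, and the counts over all genes include them, the S score genes as higher and the G2/M score genes as lower.

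Most listed replication genes were higher than in G2/M-scored cells, with 18 of 24 origin genes, 20 of 25 polymerase and fork genes, 12 of 18 nucleotide genes, 8 of 11 chromatin genes, 14 of 19 E2F and cyclin genes and 16 of 25 checkpoint genes higher. In the same lists 1 origin gene, 2 E2F and cyclin genes and 3 checkpoint genes were lower. Slfn9 (64.1, 57.0, 77.1 and 75.0 CPM against 11.5, 9.76, 18.2 and 16.8 in G2/M-scored cells), Tcf19, Zfp367, Brca1 and E2f1 were the largest rises under the rule, with log2 fold changes of 2.31, 2.13, 1.88, 1.83 and 1.83. Arl6ip1, Cdc25b, Aspm, Nusap1 and Kif2c were the largest falls at -3.18, -3.06, -2.96, -2.93 and -2.87. Aspm, a protein of the spindle poles, had 26.4, 28.2, 39.5 and 63.1 CPM in S-scored cells and 235, 208, 364 and 349 in G2/M-scored cells. Both E cyclins were higher as well, Ccne1 with a log2 fold change of 1.83 (adjusted p = 1.59e-11, edgeR) and Ccne2 with 2.75 (adjusted p = 6.02e-15), and Dbf4 was again lower at -1.38. Of 10 replication-dependent histone genes tested, 7 were lower and Hist1h1a was higher (0.76).

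Along the whole score, the polymerase and fork list declined at each step and the G2/M genes rose and fell again. Polymerase and fork genes summed to 27.1, 25.1, 23.5 and 24.2 UMIs per 10000 in the highest score decile of replicates 1 to 4 and to 11.4, 11.3, 6.6 and 5.4 in the lowest. The other G2/M genes peaked at 59.7 and 71.2 per 10000 in decile 8 of replicates 1 and 2, at 71.6 in decile 6 of replicate 3 and at 80.2 in decile 5 of replicate 4. In the lowest decile they stood at 45.6, 47.2, 21.6 and 8.32. Replicate 4 had the lowest value there. Ccne2 fell from 48.9, 41.4, 38.4 and 54.7 CPM in the highest decile to 12.9, 16.3, 10.5 and 11.3 CPM by the fifth, whereas Ccna2 climbed from 61.8, 93.1, 81.1 and 99.5 CPM to 96.9, 175, 177 and 239 CPM over the same steps. The deciles are cut from the score itself and are given as a description.

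**Figure D4:**
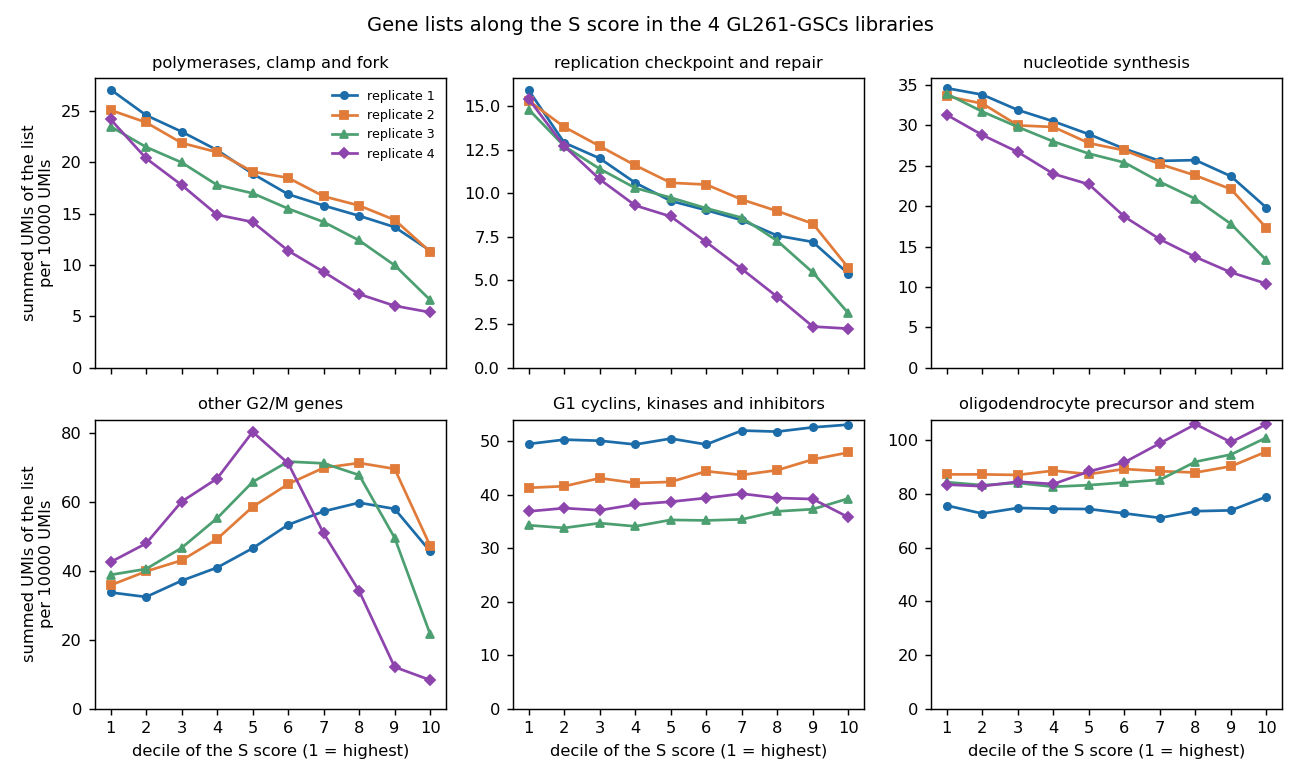
Summed UMIs of 6 gene lists per 10000 UMIs (axes from 0) in deciles of the S score, 1 being the highest, with 1 line per GL261-GSCs library. The replication lists decline from decile 1 to 10, the other G2/M genes peak between decile 5 in replicate 4 and decile 8 in replicates 1 and 2, and the G1 and stem lists vary less.

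Genes of G1 and of cycle arrest were lower in part. Of 16 G1 cyclins, kinases and inhibitors tested, 11 were lower and Cdk6 was higher (0.65), with a median of -0.29. Over all genes tested, 7.98% were lower and 8.72% higher. With no replicate block 0 of the 16 were called, where 170 of all 12587 genes were. Cdkn1b, the inhibitor p27 of cyclin E kinase, had 35.3, 48.9, 35 and 49.4 CPM in S-scored cells and 52.2, 61.2, 58.6 and 81.0 in low-scored cells, a log2 fold change of -0.57 with SE 0.09 (adjusted p = 0.00193, edgeR), lower within each of 4 libraries. Btg2, an anti-proliferative target of p53, had 26.9, 9.78, 23.8 and 21.4 CPM against 49.3, 23.5, 94.2 and 96.5, a log2 fold change of -1.54 (SE 0.18), lower within each library although the classes overlapped. Cdkn2d, an inhibitor of Cdk4 and Cdk6, was at -0.98 and was not called when low-scored cells in the top 20% of the G2/M score were left out. Cyclin D1 (Ccnd1), which starts the release of E2F, had 2230.0, 1580.0, 1340.0 and 1440.0 CPM against 2500.0, 1980.0, 1630.0 and 1680.0, a small difference of -0.25 (SE 0.06, adjusted p = 0.0182) that was lost without replicate 3. Cdkn1a, the inhibitor p21, did not pass the test at 0.2 (SE 0.1, adjusted p = 0.201). Compared with G2/M-scored cells, 3 of 16 genes of this list tested were higher and 7 lower, where 13.4% and 13.8% of all genes were. Cdkn1a was higher there in each of 4 libraries, at 0.69 (SE 0.09, adjusted p = 1.5e-06, edgeR). Cdkn1b was lower there at -0.88 (SE 0.11, adjusted p = 3.06e-07, edgeR). Cdkn1c had too few UMIs to be tested.

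Of 23 stem and precursor genes tested, 17 did not pass the test between S-scored and low-scored cells, where 10486 of all 12587 genes did not. Olig2, a transcription factor of oligodendrocyte precursors and glioma stem cells, had 373, 394, 795 and 676 CPM in S-scored and 416, 434, 847 and 690.0 CPM in low-scored cells, a log2 fold change of -0.1 with SE 0.06 (adjusted p = 0.273, edgeR). Replicates 3 and 4 were higher than replicates 1 and 2 in either class. Sox2 had 80.1, 140.0, 144 and 131 CPM against 85.8, 149, 157 and 169, a log2 fold change of -0.16 with SE 0.07 (adjusted p = 0.161). Neither passed the test, which does not show that the levels are equal. Of 23 genes tested of the 28 listed, Nes was higher (0.26) and Id1 (-1.01), Sox4 (-0.48), Pdgfra (-0.34), Sox10 (-0.33) and Vim (-0.27) were lower. Over all genes tested, 8.72% were higher and 7.98% lower. With library size scaling the counts were 4 higher and 3 lower of the 23, against 1581 higher and 691 lower of all 12587 genes. Pdgfra, the receptor that marks these precursors, had 52.1, 72.9, 110.0 and 132 CPM against 60.3, 89.3, 169 and 150.0, and scaling by library size ended its call, as did leaving out replicates 1, 2 or 3 in turn. Relative to G2/M-scored cells, 4 of 22 genes of this list tested were higher and 7 lower, where 13.4% and 13.8% of all genes were. Olig2 was called lower there at -0.27 (SE 0.06, adjusted p = 0.00133, edgeR) and Pdgfra at -0.87 (SE 0.08, adjusted p = 4.46e-10, edgeR). Both were lower within each of 4 libraries, and Sox2 did not pass that test at 0.01 (SE 0.07).

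Most calls on the differentiation and stress lists against low-scored cells were lower, where 7.98% of all genes tested were lower. Of 14 neural differentiation genes tested, 4 were lower (Tubb3, Mbp, Gap43 and S100b, at -1.14 to -0.37) and Map2 was higher (0.33). Of 22 sterol synthesis genes, Mvk alone was called, at -0.28, and library size scaling ended that call. Hypoxia genes were lower in 5 of 14 cases, led in p by Bnip3 with 18.1, 17.9, 94.1 and 140.0 CPM against 19.2, 23.5, 205 and 319, a log2 fold change of -0.79 with SE 0.16 (adjusted p = 0.00844, edgeR). Its levels split the libraries, with replicates 3 and 4 high in both classes. Immediate early genes were lower in 4 of 9 cases, Egr2, Atf3, Egr1 and Junb, and p53 targets in 6 of 13. Of 12 genes of amino acid stress, Phgdh was higher and Ddit3 and Sesn2 were lower. Without replicate 3, 222 of all 12492 genes tested were lower, 0 of the 14 hypoxia genes were called, and the lower genes numbered 1 of 14 for differentiation, 2 of 9 for immediate early genes, 1 of 13 for p53 targets, 5 of 16 for G1 genes and 1 of 23 for stem and precursor genes. Hypoxia genes had a median log2 fold change of -0.25 without replicate 3, -0.14 without replicate 4 and -0.29 with all libraries. Without replicate 3 and with all libraries, the medians were -0.49 and -0.55 for immediate early genes. They were -0.32 and -0.34 for p53 targets and -0.15 and -0.24 for differentiation. By library, the median log2 ratios of hypoxia genes were 0.04, -0.07, -0.33 and -0.72 in replicates 1 to 4. Those of differentiation genes were 0.08, -0.11, -0.36 and -0.41. Immediate early genes had -0.07, -0.22, -0.62 and -0.38, and p53 targets -0.19, -0.21, -0.36 and -0.46. Against G2/M-scored cells, the calls differed by list, where 13.4% of all genes tested were higher and 13.8% lower. There, 6 of 14 differentiation genes were higher and 2 lower, and 3 of 9 immediate early genes were higher and 1 lower. For amino acid stress 4 of 12 were higher and 2 lower, and for p53 targets 2 of 13 were higher and 3 lower. Hypoxia had 0 higher and 7 lower of 14, and sterol synthesis 0 higher and 4 lower of 22.

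Summed microglia markers were lower in S-scored cells of every library and summed neuron markers in 3 of 4, but few members were detected. Per library, 1 to 3 of the 8 microglia and macrophage markers had a UMI in S-scored cells and 2 to 5 in low-scored cells. For the 5 neuron markers these counts were 1 to 2 and 2 to 3. The 8 microglia and macrophage markers summed to 3.22 to 15.5 CPM in S-scored and 12.5 to 39.6 CPM in low-scored cells, lower in S-scored cells within each of the 4 libraries, and C1qa, C1qb and Tyrobp were at 0 in both classes of every library. Cd68, the only member with enough UMIs to be tested, was lower at -1.21 (adjusted p = 0.000932, edgeR). The 5 neuron markers summed to 1.56 to 42.7 CPM against 1.46 to 76.4, lower in S-scored cells of replicates 2 to 4 and not of replicate 1 (1.56 against 1.46), with Rbfox3 and Gad1 at 0 in each library and class, and Syt1, the only one tested, was lower at -0.63 (adjusted p = 0.00462, edgeR). Syt1 was not called without replicate 3, and neither Cd68 nor Syt1 was called with no replicate block. Fibroblast and pericyte markers summed to 9.52 to 22.3 against 11.6 to 25 CPM. Their part in the lower calls above was not tested.

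The same rule applied to the GL261 libraries chose 388 and 410 cells, and few genes differed in their S-scored change between the cultures. The test of the difference between the S-scored changes of GL261-GSCs and GL261 called 3 of 13798 genes (0.0217%) by edgeR, none of them on a list, and 917 genes had an unadjusted p under 0.05. For Ccne2 the log2 fold change in GL261-GSCs minus that in GL261 was -0.21 (SE 0.25), for Pcna 0.16 (SE 0.18), for E2f1 0.28 (SE 0.15) and for Ccnb1 -0.22 (SE 0.19). For Rrm2 it was 0.79 (SE 0.25, adjusted p = 0.48). A difference that was not called is not shown to be 0.

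All 3 genes called had a lower S-scored change in GL261-GSCs than in GL261. Emp1, a membrane protein, at chr6:135362545-135383173 (+, GRCm38), had 9.388, 8.194, 9.014 and 6.023 CPM in S-scored cells of GL261-GSCs and 44.89, 34.94, 39.51 and 29.1 in low-scored cells. In GL261 it had 177.7 and 222.9 CPM in S-scored and 274 and 324.3 CPM in low-scored cells, so that the log2 fold changes differed by -1.59 (SE 0.12, adjusted p = 0.00012, edgeR). Lgals3, the sugar-binding protein galectin-3, at chr14:47367751-47386160 (+), had 27.03, 8.194, 134.8 and 110.3 CPM against 62.39, 30.73, 350.3 and 368.4 in GL261-GSCs and 1158 and 1211 against 1301 and 1276 in GL261, a difference of -1.39 (SE 0.14, adjusted p = 0.00216). Both genes were lower within each library of both cultures, and their levels were higher in both GL261 libraries than in any GL261-GSCs library. The summed microglia and macrophage markers given above, of which Cd68 alone could be tested, were lower in the same S-scored cells. Their part in the differences from GL261 was not tested. The third, the cytokine Il11, named after its values were seen, had 1.619, 0.964, 1.33 and 3.707 CPM against 12.18, 6.827, 7.412 and 9.108 in GL261-GSCs and 26.63 and 24.82 against 32.95 and 17.84 in GL261, a difference of -2.54 (SE 0.34, adjusted p = 0.0217). The count was 12 without replicate 1 of GL261-GSCs and 1 without replicate 2 of GL261, and it rose to 84 without replicate 4 of GL261-GSCs, to 60 with a minimum of 12000 UMIs per cell and to 87 with no filter on low counts, and DESeq2 called 14.

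**Figure D5:**
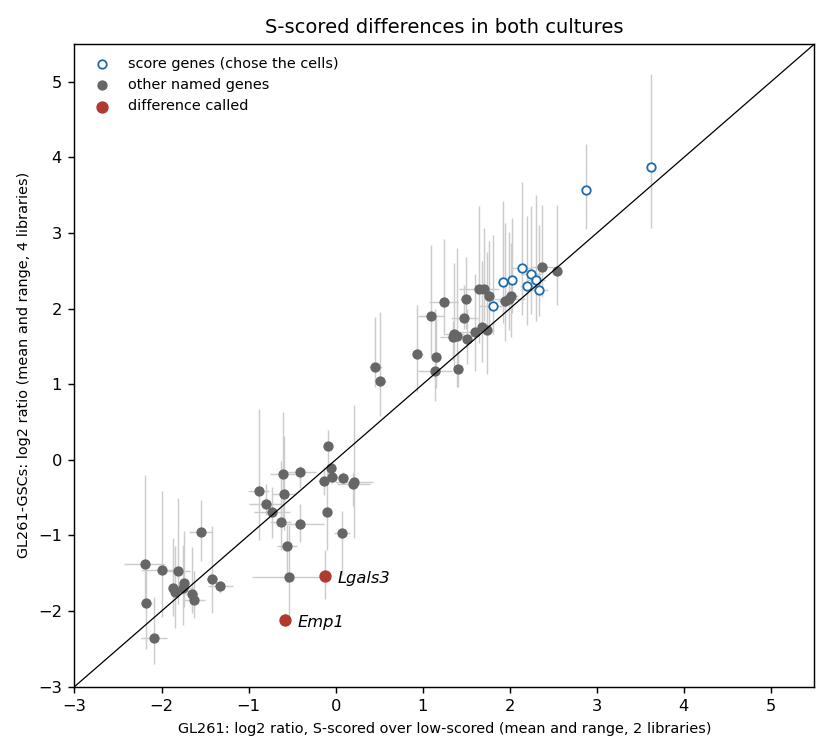
Log2 ratio of S-scored over low-scored CPM (each plus 0.5) of the named genes in GL261 (x axis, mean and range of 2 libraries) and GL261-GSCs (y axis, mean and range of 4 libraries), with a line where both are equal. Most genes lie near the line, and Emp1 and Lgals3, the filled red points, lie below it.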

How the data were processed

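The 4 GL261-GSCs and 2 GL261 libraries are described by raw UMI counts per gene and barcode, deposited as matrices that Cell Ranger 4 wrote per the file headers, on mm10 per the submitters' processing notes. Neither the annotation release nor the alignment settings are given in the sources used here. From these counts, barcodes passing the cell filter were scored, classed within each library and summed per library and class. No doublets were removed. Sums were tested with edgeR 4.0.16 (TMM scaling, filterByExpr, quasi-likelihood F test, 2-sided, Benjamini-Hochberg adjustment at 0.05, R 4.3.3). The library number was the block, since both sums of a number come from the same library. SE is the log2 fold change divided by the square root of F, without its sign. CPM in the comparisons are TMM-scaled, CPM of summed markers and of score deciles are relative to all UMIs of those cells, and per-library log2 ratios add 0.5 CPM. The difference from GL261 is an interaction term. G2/M shares used cells thinned to 8000 UMIs and classed again on the thinned counts, with exact permutation tests over libraries. DESeq2 1.42.0, limma 3.58.1 (voom) and other cell choices were alternatives. The code was tested on simulated data, in which the share of false calls exceeded the adjusted level of 0.05 in the comparison with low-scored cells and in the difference from GL261, so single calls near the threshold are less certain than their adjusted p.

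The cells, gene lists and tests were chosen with earlier results of these data known. Named genes are the 10 largest rises and 10 largest falls against low-scored cells whose average log2 CPM reached 5, with the same direction in 4 libraries, outside the score and without predicted, RIKEN, mitochondrial or ribosomal protein genes, the 5 largest each way in the other comparisons by the same rule, the gene with the smallest p of each list, and fixed genes. Symbols are the files' own. For 94 repeated symbols the identifier holding most UMIs was taken. Gene coordinates are from GENCODE M21 (GRCm38), which holds 54409 of the 54446 identifiers. Counts of summed cells have no error beyond the spread over 4 or 2 libraries.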

Additional observations from a re-analysis of the deposited data

Results flagged for a closer look

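In 8 of 81 values tested, replicate 4 of GL261-GSCs lay far from the other 3 libraries, by a rule that chance meets in about 1 in 20 groups. The values are log2 ratios of S-scored over low-scored CPM. Gins2 and Dtl are score genes that took part in choosing these cells, and their ratios are a description. Replication genes were further apart in replicate 4: Gins2 at 2.98 against 1.66 to 1.85, Dtl at 3.1 against 1.89 to 2.03, Gmnn at 2.0 against 0.78 to 0.98, Fam111a at 2.32 against 1.72 to 1.75 and Hist1h1a at 1.89 against 0.98 to 1.06. Later-cycle genes were closer together there, with Ccnb1 at -1.15 against -2.03 to -1.97 and Ccna2 at -0.01 against -1.19 to -1.02. Sox2 was at -0.37 against -0.12 to -0.09. Replicate 4 had the fewest cells and the lowest depth, and its part in these values was not tested.

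The S-scored log2 fold change differed between GL261-GSCs and GL261 by -1.59 for Emp1 and by -1.39 for Lgals3 in the test of the difference itself (adjusted p = 0.00012 and 0.00216, edgeR). Of the 3 genes called there, 1 stayed called with the top 5% as S-scored, with the top 20% and without replicate 2 of GL261. With no replicate block 0 stayed called. At least 1 of Emp1 and Lgals3 thus lost its call in each of these settings, although all 3 genes kept their sign.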

How the results depend on the processing

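All 10 left-out score genes were called under every setting run for them. The 2101 genes called against low-scored cells became 3161 with a minimum of 5000 UMIs per cell and 170 with no replicate block, and 557 to 2619 on leaving out each replicate in turn. The 3 genes that differed from GL261 became 1 with the top 20% as S-scored, 60 with a minimum of 12000 UMIs, 13 with thinned cells, 12 with low-scored cells matched in UMIs, 14 by DESeq2, 87 with no filter on low counts and 1 to 84 on leaving out each replicate. With no replicate block they became 0 by edgeR, with 128 genes at an unadjusted p under 0.05. The 3255 genes called against G2/M-scored cells became 436 with no replicate block and 1544 by DESeq2. The difference in G2/M shares turned to 0.42 percentage points when the low-scored cells left out the top 20% of the G2/M score, which removes those cells by construction, and ran from -15.7 to -13.6 on leaving out each replicate. No named gene that was called changed sign. Of 69 named genes tested, 23 lost their call with no replicate block, 10 with the bottom 25% as low-scored, 10 when low-scored cells left out the top 20% of the G2/M score and 6 without replicate 3. The causes were not tested. Depth limits genes of few UMIs, since the S-scored cells of replicate 4 summed to 2110119 UMIs.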
